A study of Mus musculus with 10 samples.

Results

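Of the 20807 protein-coding genes that GENCODE M21 places on chromosomes 1 to 19 of mm10, 1034 carried H3K4me3 at a pair of their own transcript starts more than 5 Kb apart in F123 mouse embryonic stem cells. A gene was chosen by the H3K4me3 list itself. It needed at least 2 separate H3K4me3 peaks ("rows" of the list), each within 500 bp of an annotated start of the gene, and no start of any other gene within 1 Kb of either start. Such isolated starts more than 5 Kb apart were present in 7954 genes, so the chosen genes were 13.0% of those that could qualify (95% Wilson interval 12.3 to 13.8%). Within each gene the row at the most 5′ marked start is called upstream and the row at the most 3′ marked start downstream.

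F123 is an embryonic stem cell line from an F1 cross of Mus musculus castaneus with S129/SvJae, so each cell holds both parental genomes, and neither list was split by allele. The cells were grown with LIF on irradiated CF1 feeder fibroblasts and passaged once without feeders before harvest. No treatment or mutant was compared. H3K4me3 ChIP-seq used 2000000 fixed cells per sample and ATAC-seq 100000 cells per sample, with 2 replicates each, and the deposited list of each assay is 1 list that stands for both replicates. Intervals below therefore cover counting error only, no spread between replicates can be given, and no p-value is reported.

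Alternative promoters let a gene be switched on from more than 1 place, which can change the first exon, the N-terminus of the protein or the tissue in which the gene is used. H3K4me3 is a histone mark that sits on the nucleosomes beside active or poised starts, and it is broad and strong at CpG islands. ATAC-seq marks DNA that the Tn5 transposase can reach, which at a promoter is the short stretch left open by the transcription machinery. In embryonic stem cells many developmental genes have H3K4me3 at their promoters while they are silent, so a marked start is not by itself a transcribed one.

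The 200 bases that end just before the first annotated start of each row are shown for 3 genes, because they give a pair that differs strongly, a pair from a gene list and a pair that is strong at both ends. They come from the RefSeq genome file of GRCm38, the assembly that mm10 names, run 5′ to 3′ on the strand of the gene, and overlap no annotated exon of the gene. Capitals mark CpG dinucleotides. Hpcal1 (a neuronal calcium sensor) was among the genes marked most strongly upstream, Utrn (utrophin, the relative of dystrophin) belongs to a list of cytoskeletal linkers, and Mia3 (a cargo receptor of the endoplasmic reticulum) was strong at both.
Hpcal1 upstream, chr12:17690656-17690855, plus strand: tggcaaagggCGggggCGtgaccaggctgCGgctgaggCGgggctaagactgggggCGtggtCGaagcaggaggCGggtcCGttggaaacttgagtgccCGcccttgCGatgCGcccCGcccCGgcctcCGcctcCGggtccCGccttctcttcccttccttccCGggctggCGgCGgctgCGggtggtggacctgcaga
Hpcal1 downstream, chr12:17728026-17728225, plus strand: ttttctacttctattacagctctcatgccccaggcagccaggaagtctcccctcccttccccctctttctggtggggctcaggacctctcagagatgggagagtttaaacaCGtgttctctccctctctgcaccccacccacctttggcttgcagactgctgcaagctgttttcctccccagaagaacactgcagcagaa
Utrn upstream, chr10:12869366-12869565, minus strand: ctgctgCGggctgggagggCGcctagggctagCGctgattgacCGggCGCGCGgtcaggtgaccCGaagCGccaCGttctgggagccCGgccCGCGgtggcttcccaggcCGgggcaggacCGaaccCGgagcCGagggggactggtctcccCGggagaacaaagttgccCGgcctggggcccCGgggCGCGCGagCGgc
Utrn downstream, chr10:12548880-12549079, minus strand: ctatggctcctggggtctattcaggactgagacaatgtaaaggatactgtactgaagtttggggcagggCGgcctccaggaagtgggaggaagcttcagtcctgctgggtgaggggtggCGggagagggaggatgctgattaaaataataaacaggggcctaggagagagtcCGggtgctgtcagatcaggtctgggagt
Mia3 upstream, chr1:183369554-183369753, minus strand: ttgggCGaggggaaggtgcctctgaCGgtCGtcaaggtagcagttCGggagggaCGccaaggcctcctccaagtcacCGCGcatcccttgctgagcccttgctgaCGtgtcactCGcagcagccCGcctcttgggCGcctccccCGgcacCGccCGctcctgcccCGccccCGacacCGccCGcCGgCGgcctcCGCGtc
Mia3 downstream, chr1:183345297-183345496, minus strand: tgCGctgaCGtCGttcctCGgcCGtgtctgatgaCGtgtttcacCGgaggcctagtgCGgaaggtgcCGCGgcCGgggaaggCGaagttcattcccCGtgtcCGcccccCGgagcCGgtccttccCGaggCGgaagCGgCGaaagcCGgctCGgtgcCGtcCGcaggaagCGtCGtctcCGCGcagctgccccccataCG
The Hpcal1 window held 20 CpGs upstream and 1 downstream, and the Utrn window 24 and 3. Mia3 held 22 and 29, so both of its windows were dense in CpG.

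The whole H3K4me3 list held 33487 rows with a median width of 1135 bp and a median fold enrichment of 8.93 over the background of the peak caller. The ATAC-seq list held 179109 peaks with a median width of 261 bp. All 10 embryonic stem cell markers looked up (Pou5f1, Sox2, Nanog and 7 more) had an H3K4me3 row at a start, and so did 5 of 8 fibroblast markers, with fold enrichments of 3.39 to 20.4, while Col3a1, Postn and Lum had none. The part of feeder cells in any row below was not tested.

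The upstream rows were wider and stronger than the downstream rows in most of the genes. The median width was 2010 bp upstream (95% interval 1904 to 2087) and 1174 bp downstream (1106 to 1251). The median fold enrichment was 24.7 upstream (23.1 to 26.3) and 8.23 downstream (7.55 to 9.23). The median of −log10 q was 311 upstream and 49.6 downstream. For scale, 9132 genes had a single marked row at an isolated start. Their medians were 2028 bp in width, 28.8 in fold enrichment and 408 in −log10 q. The upstream rows lay close to this width but under the other medians, and the downstream rows lay well under all of them. Marked starts near other genes were not counted, so these 9132 genes may have further marked promoters. The width and strength of the rows were used in calling and choosing them, so these values describe the genes and are not tested.

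Within genes, the upstream row was the wider in 725 of 1034 genes (70.1%, 67.3 to 72.8) and the stronger in 764 (73.9%, 71.1 to 76.5). Both held together in 655 genes (63.3%). The downstream row was the wider and the stronger in 200 genes (19.3%), and in 179 (17.3%) one row was wider and the other stronger. The median log2 ratio of upstream to downstream fold enrichment was 1.29 (1.11 to 1.43), and that of the widths 0.72 (0.58 to 0.84). The differences ran in both directions. In 340 genes (32.9%) the fold enrichments were within 2-fold of each other, in 376 (36.4%) the upstream row was more than 4-fold stronger, and in 55 (5.32%) the downstream row was.

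**Figure D1:**
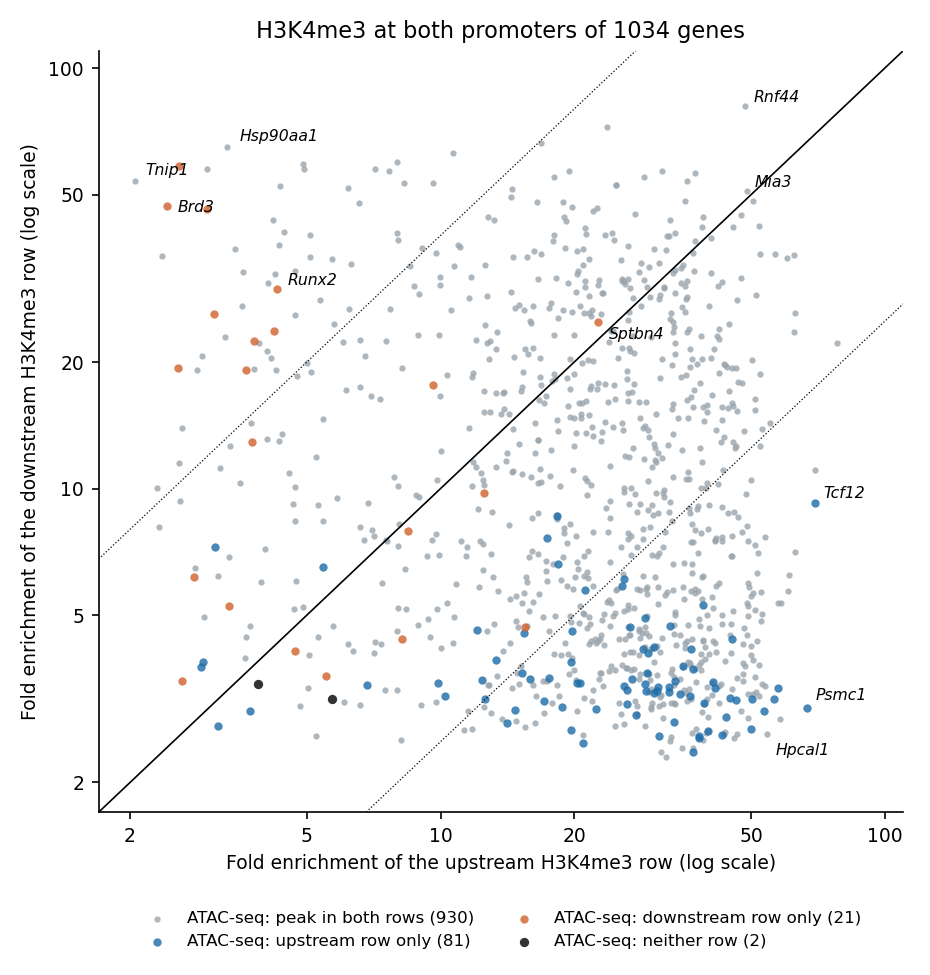
Fold enrichment of the upstream H3K4me3 row (x axis) and the downstream row (y axis) of each of the 1034 genes, both on log scales, coloured by which rows overlap an ATAC-seq peak. The solid line marks equal values and the dotted lines a 4-fold difference; 764 genes lie below the solid line, and the 81 genes with ATAC-seq upstream only gather at downstream fold enrichments near the bottom of the plot.

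The genes at the extremes show how far apart the rows of 1 gene could be. Psmc1, a subunit of the proteasome's regulatory particle, had a fold enrichment of 66.8 over 2072 bp upstream and 3.00 over 311 bp at a start 9.72 Kb downstream. Hpcal1 had 54.5 and 2.60 with 37.4 Kb between its starts. Etv5, an ETS transcription factor, had 58.0 and 2.83. Trim24, a chromatin reader with a bromodomain, had 49.9 and 2.68, and Rtn4, the endoplasmic reticulum protein also called Nogo, had 53.4 and 2.96. The upstream rows of these 5 genes all overlapped ATAC-seq peaks, and the downstream rows of Psmc1, Trim24 and Rtn4 overlapped none.

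At the other end, Tnip1, which restrains NF-κB signalling, had 2.05 upstream and 54.0 downstream, 6.86 Kb away. Usp14, a deubiquitinase of the proteasome, had 2.58 and 58.4. Hsp90aa1, the stress-inducible cytosolic HSP90 chaperone, had 3.31 and 64.8 with 6.78 Kb between its starts. Brd3, a BET bromodomain protein, had 2.42 and 47.0, and Mrps24, a protein of the mitochondrial ribosome, had 2.98 and 57.4. In each of these genes the weak row lay at the most 5′ start and was narrower than 1 Kb. The upstream rows of Usp14 and Brd3 overlapped no ATAC-seq peak, and all 5 downstream rows did.

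Other genes carried a strong row at both ends. The 5 genes whose weaker row was strongest were Mia3 (48.9 upstream and 51.1 downstream), Rnf44, a RING-finger protein (48.5 and 81.1), Gatad2a, a subunit of the NuRD complex (50.4 and 48.3), Kansl1, a scaffold of a histone acetyltransferase complex (47.4 and 44.9) and Prickle1, a planar cell polarity protein (52.1 and 42.2). Their starts were between 6.16 Kb (Rnf44) and 76.4 Kb (Prickle1) apart, and all 10 rows overlapped an ATAC-seq peak.

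ATAC-seq did not enter the choice of the genes. It was present at nearly all of the upstream rows and at fewer of the downstream rows. An ATAC-seq peak overlapped the upstream row in 1011 of 1034 genes (97.8%, 96.7 to 98.5) and the downstream row in 951 (92.0%, 90.2 to 93.5). Both shares come from the same genes, so their intervals are not independent, and the counts within genes follow below. Over all autosomal H3K4me3 rows the share was 87.0%, and over the rows of the genes with 1 marked row it was 98.7%. Counted from the start rather than the row, a peak lay within 500 bp in 95.6% of upstream and 89.4% of downstream promoters. Both rows overlapped a peak in 930 genes (89.9%), only the upstream row in 81, only the downstream row in 21 and neither in 2, Hoxb3 and Nr2f2. Of the 102 genes with ATAC-seq in 1 row only, 92 had it in the row of higher fold enrichment.

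**Figure D2:**
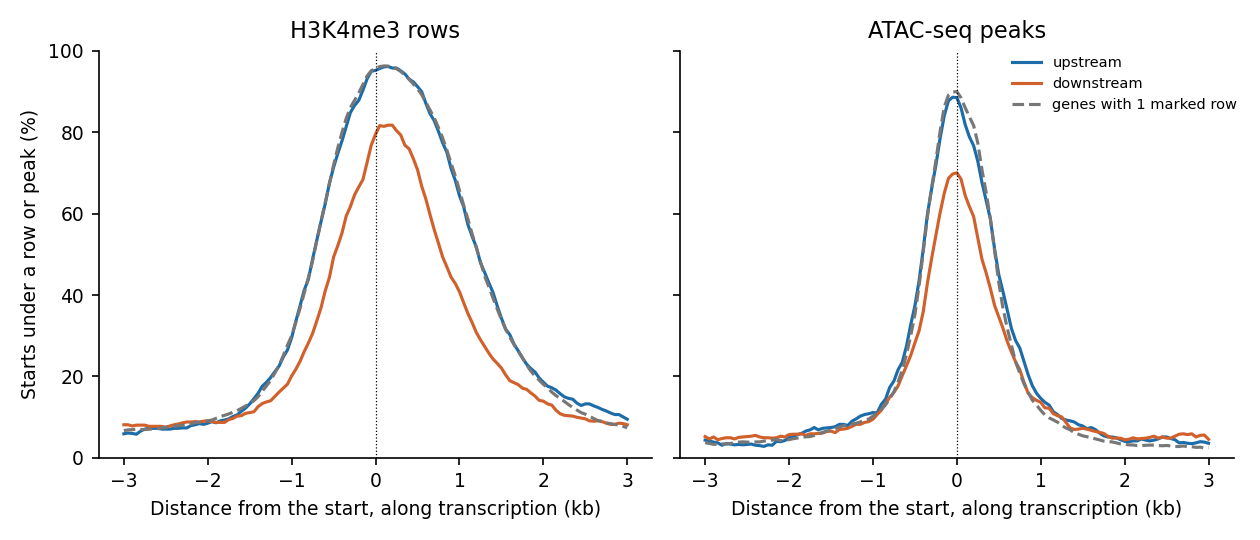
Percent of starts covered by an H3K4me3 row (left) or an ATAC-seq peak (right) at each distance from the start, in Kb along the direction of transcription, for upstream starts, downstream starts and starts of genes with 1 marked row. At the start itself H3K4me3 rows cover 95.2% of upstream and 79.5% of downstream starts, and ATAC-seq peaks cover 88.5% and 70.0%. Starts were chosen by their nearness to H3K4me3 rows, which sets part of the H3K4me3 coverage.

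The share of rows with ATAC-seq moved with the strength of the row at both positions. Among rows with a fold enrichment under 5, a peak was present in 80.0% of 75 upstream rows (69.6 to 87.5), 78.1% of 333 downstream rows (73.3 to 82.2) and 79.9% of 472 rows of genes with 1 marked row (76.0 to 83.2). Between 5 and 10 it was present in 94.7%, 95.7% and 97.5%. Between 10 and 20 it was present in 225 of 227 upstream and all 214 downstream rows, and at 20 or more in 636 of 637 and all 254. Within each class the intervals of the upstream and downstream shares overlap. The classes were filled unequally, since 32.2% of downstream rows but 7.25% of upstream rows had a fold enrichment under 5. Of the weaker row of each gene, 94.4% overlapped a peak where it lay upstream (255 of 270, 91.0 to 96.6) and 89.7% where it lay downstream (685 of 764, 87.3 to 91.6). These intervals overlap, which does not show that the shares are alike, and the difference was not tested. Of the stronger row, 99.0% overlapped a peak upstream and 98.5% downstream.

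**Figure D3:**
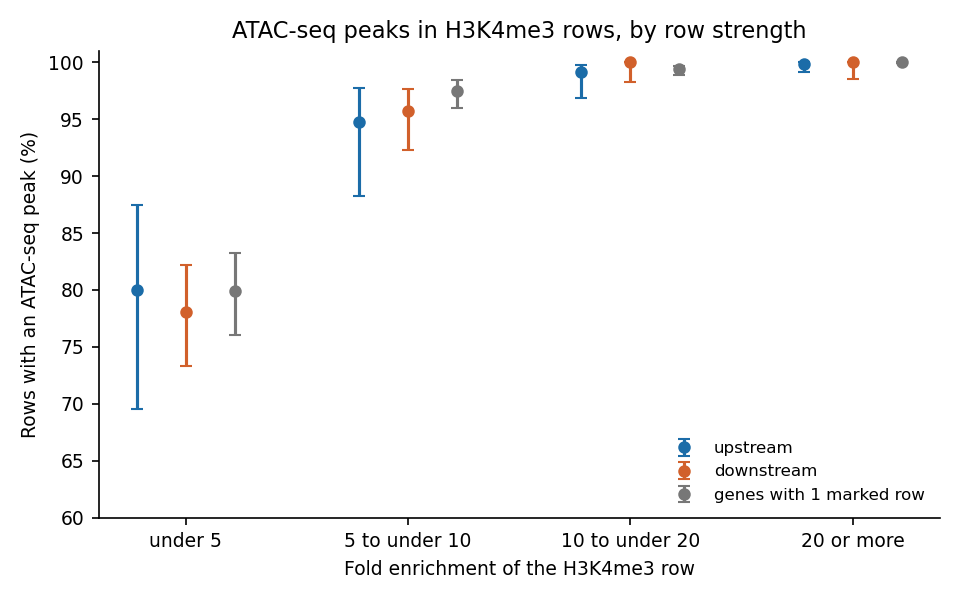
Percent of H3K4me3 rows that overlap an ATAC-seq peak (y axis, from 60%) by the fold enrichment of the row (x axis), for upstream rows, downstream rows and the rows of genes with 1 marked row. Bars are 95% Wilson intervals; in the lowest class the shares are 80.0%, 78.1% and 79.9%, and in the highest they are 99.8%, 100% and 99.98%.

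The upstream rows overlapped 1531 ATAC-seq peaks and the downstream rows 1329, which is 0.684 and 0.850 peaks per Kb of row. The downstream rows thus overlapped fewer peaks in all. Their higher value per Kb depends on their smaller width, and a peak that shared 1 bp with a row was counted. There were 2 or more peaks in 34.1% of upstream and 26.2% of downstream rows. Among the genes with ATAC-seq in 1 row only, the row without a peak was strongest in Sptbn4, a spectrin of axon initial segments (22.7 upstream with no peak, 24.9 downstream with 2 peaks). Next came Dlg4, the synaptic scaffold PSD-95 (15.5 upstream with no peak, 4.68 downstream with 1 peak), and Hoxd3, a homeobox gene (12.6 with no peak and 9.77 with 1 peak). Ntm, a neural adhesion molecule, had 9.60 upstream with no peak and 17.6 downstream with 1. In Tcf12, an E-protein transcription factor, the row without a peak was the downstream one (9.27, against 69.5 upstream).

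The starts were a median of 26314.5 bp apart (95% interval 23039 to 29350). They were 5 to 10 Kb apart in 232 genes (22.4%), 10 to 50 Kb in 459 (44.4%), 50 to 100 Kb in 163 (15.8%), 100 Kb to 1 Mb in 174 (16.8%) and more than 1 Mb in 6. The share of genes with the upstream row the stronger rose with spacing, at 69.8%, 73.4%, 76.1% and 79.3% in the first 4 classes. Its intervals overlap from each class to the next, and a trend was not tested. The downstream row overlapped an ATAC-seq peak in 90.1%, 91.5%, 92.0% and 95.4% of the genes in the same classes. Another H3K4me3 row lay between the upstream and the downstream row in 539 genes (52.1%), and an ATAC-seq peak between them in 920 (89.0%), at 0.930 peaks per 10 Kb against 0.702 over the autosomes. The rows were at most 1 Kb apart in 12 genes.

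The 5 widest spacings belonged to long genes of the nervous system. Cntnap2, a neurexin-like adhesion protein, had its marked starts 2185.1 Kb apart, with fold enrichments of 6.72 and 7.54. Dlg2, a synaptic scaffold, had 35.2 and 5.45 at 1703.5 Kb, and Lsamp, a limbic adhesion protein, had 16.6 and 16.3 at 1548.8 Kb. Lrrc4c, a netrin-G ligand, had 4.75 and 18.6, and Auts2, a neurodevelopmental regulator, had 20.3 and 32.4. Of these 5, Dlg2 alone was stronger upstream by more than 2-fold. All of their rows overlapped ATAC-seq peaks.

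Most of the genes had just 2 marked starts when each was required to lie more than 5 Kb from the next. There were 883 of these, with 117 genes at 3 starts, 25 at 4, 6 at 5 and 3 at 6. Abr, a regulator of small GTPases, had 6 rows over 185.1 Kb with fold enrichments of 43.4, 9.07, 27.7, 10.4, 31.4 and 13.3 from 5′ to 3′. In Etl4, a long gene also known as Skt, the rows of the same order had 21.1, 3.37, 39.9, 8.51, 3.67 and 3.17, so its strongest row lay inside the gene, 610.0 Kb from the most upstream one. Myo10, the myosin of filopodia, had 36.7 at its most upstream start, where a further row of 16.8 adjoined it, then 9.62, 9.17, 21.9, 3.63 and 7.48. The row of 3.63 overlapped no ATAC-seq peak, and every other row of these 3 genes did.

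The 6 genes with 5 such starts were Ank2, Frmd4b, Fry, Iqsec1, Sept9 and Trim2, and upstream and downstream fold enrichments were 35.7 and 10.5 in Frmd4b, 29.9 and 9.16 in Fry, 35.4 and 26.3 in Iqsec1, 35.8 and 23.6 in Sept9 and 15.0 and 12.8 in Trim2. Genes with 4 were Arhgef2, Camta1, Dab2ip, Dpp6, Fkbp5, Grid2ip, Lmna, Mast4, Myh14, Nav2, Nfic, Osbpl9, Pde4d, Pde4dip, Phldb1, Por, Ptprs, Rap1gap, Rgs3, Rusc2, Stox2, Tiam1, Trak1, Utrn and Zmynd8. Arhgef2, Tiam1 and Rap1gap regulate small GTPases, and the share of such genes here was not compared with that of all genes. Pde4d, a cyclic AMP phosphodiesterase, had 17.99 upstream and 23.2 downstream, and Pde4dip, which binds it, had 16.8 and 36.1.

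Genes known for alternative promoters were often among the chosen genes. Of 35 such genes listed, 30 had isolated starts more than 5 Kb apart and 15 of these (50.0%, 33.2 to 66.8) were chosen, against 13.0% of all genes that could qualify. The list was drawn up with earlier results of these data known, and these counts are a description. The upstream row was the stronger in 11 of the 15 and the wider in 8, and 14 had an ATAC-seq peak in both rows. Over all chosen genes the upstream row was the stronger in 73.9% and the wider in 70.1%. ATAC-seq peaks overlapped 97.8% of all upstream and 92.0% of all downstream rows. The median log2 ratio of upstream to downstream fold enrichment was 0.75, against 1.29 over all 1034 genes.

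**Figure D4:**
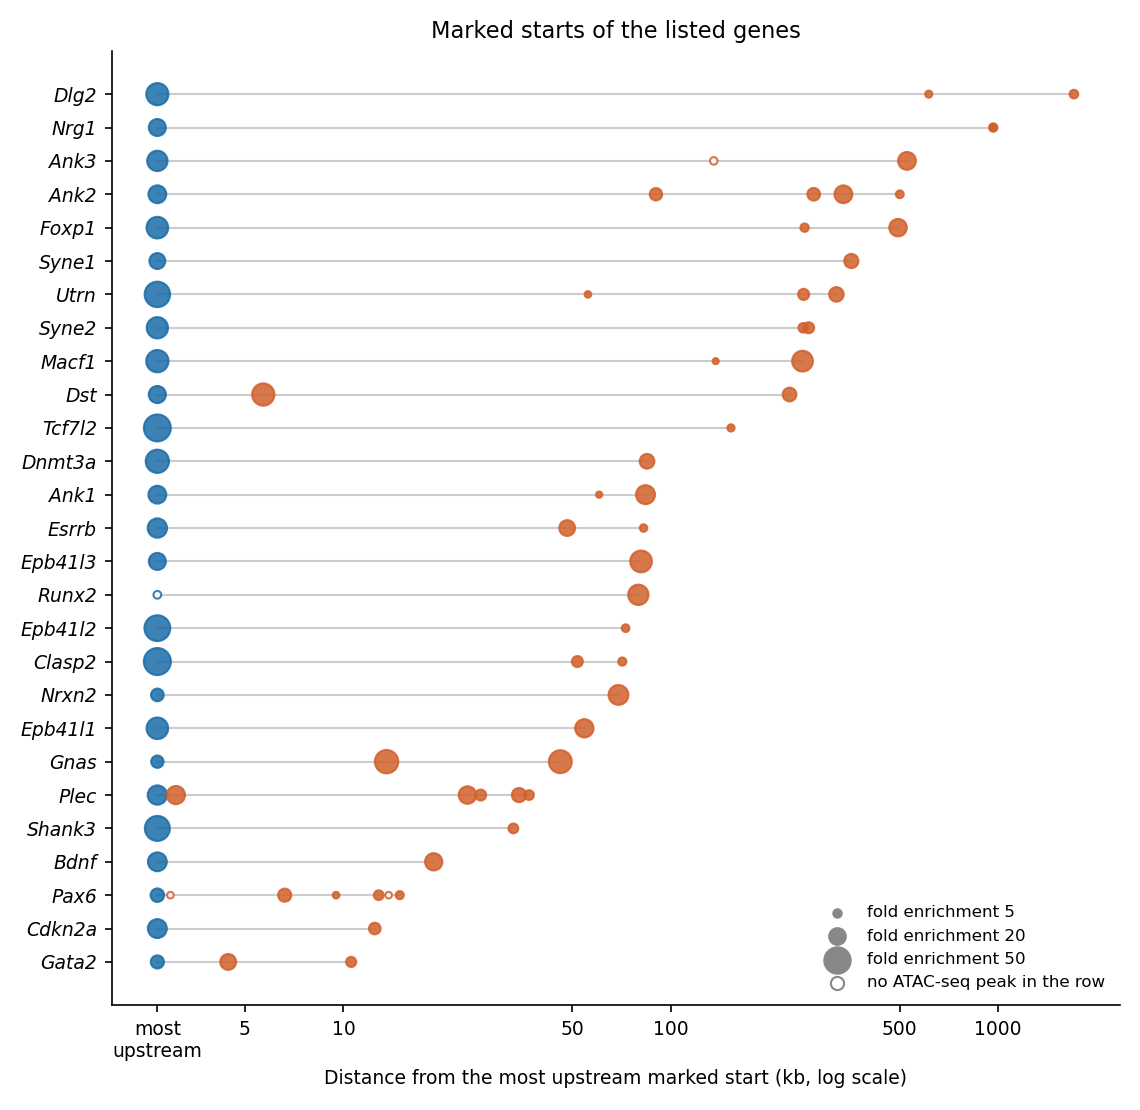
Marked starts of chosen genes of the lists of known alternative promoters, pluripotency factors and cytoskeletal linkers, by distance from the most upstream marked start (x axis, Kb, log scale). Circle area follows fold enrichment, blue circles are the most upstream rows, and open circles are rows with no ATAC-seq peak, such as the upstream row of Runx2.

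Transcription and chromatin regulators came first among them. Dnmt3a, a de novo DNA methyltransferase with a long form and a short form, had rows of 39.0 over 2936 bp with 3 ATAC-seq peaks and of 15.6 over 3188 bp with 1 peak, 84.6 Kb apart, and the start codon of its downstream transcript lay in frame inside the upstream coding sequence, after 219 codons. Runx2, the osteoblast regulator with a distal and a proximal promoter, was reversed, with 4.28 over 526 bp and no ATAC-seq peak upstream and 29.8 over 5536 bp with 2 peaks downstream. Tcf7l2, a Wnt effector, had 52.2 upstream and 3.80 downstream. Foxp1, a forkhead factor, had rows of 33.7, 5.06 and 22.2. Gata2, a regulator of blood stem cells, had 12.5, 18.2 and 7.39 within 10.6 Kb. Pax6, a regulator of the eye and forebrain, had 7 rows within 14.9 Kb with fold enrichments between 3.11 and 13.2, and 2 of its weakest rows (3.11 each) overlapped no ATAC-seq peak.

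Cdkn2a, a tumour suppressor locus whose separate first exons lead into a shared exon read in different frames, had 25.9 upstream and 9.82 at a start 12.5 Kb downstream, with 1 ATAC-seq peak in each row. Gnas, the imprinted gene of a G protein subunit, had rows of 11.0 over 5028 bp, 39.4 over 10792 bp and 37.9 over 5515 bp, and all 3 overlapped 3 or 4 ATAC-seq peaks. Its most upstream row was thus the weakest. The peaks of its maternal and paternal copies cannot be told apart here.

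Genes of neurons made up most of the rest. Bdnf, a neurotrophin with many first exons, had nearly equal rows of 25.6 and 21.6, 18.9 Kb apart. Nrxn2, a presynaptic adhesion protein, had 11.6 upstream and 28.4 downstream, so the downstream row was the stronger. Nrg1, a growth factor, had 20.9 and 5.07 with 965.7 Kb between them, and Shank3, a postsynaptic scaffold, had 45.0 and 6.91.

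Of 15 pluripotency factors, 5 had isolated starts more than 5 Kb apart, and Esrrb, an orphan nuclear receptor of naive stem cells, was the 1 chosen (20.0%, 3.62 to 62.4). This interval holds the 13.0% of all genes that could qualify. It had rows of 27.1 over 2203 bp, 18.02 over 3320 bp and 4.09 over 989 bp within 82.5 Kb, with 3, 2 and 1 ATAC-seq peaks. The other 4, Nr5a2, Sall4, Tcf3 and Tcf7l1, did not meet the rule.

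Cytoskeletal linkers, long proteins that tie actin, microtubules or membranes together, were chosen in 14 of 25 cases (56.0%, 37.1 to 73.3), against 13.0% of all genes that could qualify. All 25 could qualify, and this list too was drawn up with earlier results of these data known. The upstream row was the stronger in 12 of the 14 and the wider in 12, and every upstream and downstream row of the 14 overlapped an ATAC-seq peak. Over all 1034 chosen genes the upstream row was the stronger in 73.9% and the wider in 70.1%. ATAC-seq peaks overlapped 97.8% of all upstream and 92.0% of all downstream rows. Macf1, which crosslinks actin and microtubules, had strong rows at both ends (35.8 over 5128 bp with 6 ATAC-seq peaks, and 31.2 over 2254 bp with 1 peak), 252.5 Kb apart, with a weak row of 2.69 between them. Its relative Dst had 21.2, 35.7 and 13.6, and Plec, plectin, had 6 rows within 36.9 Kb at 26.8, 23.9, 22.2, 8.63, 14.5 and 6.95. Utrn had 46.6, 3.10, 8.87 and 15.3 over 320.5 Kb.

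The ankyrins, which anchor membrane proteins to spectrin, were all 3 chosen. Ank1 had 23.0, 2.83 and 26.0, Ank2 had 22.9, 11.1, 11.5, 22.8 and 4.40, and Ank3 had 29.7, 4.07 and 22.9, its middle row without an ATAC-seq peak. Among the protein band 4.1 relatives, Epb41l3 was stronger downstream (20.9 and 34.0), while Epb41l1 had 33.6 and 24.2 and Epb41l2 had 48.1 and 4.26. The nuclear envelope linkers Syne1 (18.3 and 14.6) and Syne2 (32.7, 6.55 and 8.82) and the microtubule plus-end protein Clasp2 (52.7, 8.70 and 4.83) had their strongest row upstream.

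Across gene families taken by symbol, the chosen share of the genes that could qualify was 47.6% of 21 phosphodiesterase genes (10 genes, 28.3 to 67.6), 27.9% of 68 regulators of small GTPases (19 genes, 18.7 to 39.6) and 23.1% of 65 chromatin regulators (15 genes, 14.5 to 34.6). It was 17.1% of 70 MAP and related kinases (12 genes, 10.1 to 27.6), 16.7% of 18 receptor tyrosine phosphatases (3 genes), 13.0% of 23 Trim genes (3 genes), 12.8% of 133 Zfp genes (17 genes) and 11.2% of 188 solute carriers (21 genes). The share over all genes that could qualify was 13.0%. The families were chosen with earlier results of these data known, so these counts are a description and enrichment was not tested. The number of annotated starts per gene was not matched in this comparison.

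Where the downstream start sat in the gene went with its strength. It lay in an intron of a transcript from the upstream row in 761 genes (73.6%), in an exon of one in 228 (22.1%) and beyond these transcripts in 45 (4.35%). The median downstream fold enrichment was 10.2 in introns (8.78 to 11.6) and 5.58 in exons (4.82 to 6.43), while the upstream medians were 24.5 and 26.4. The downstream row overlapped an ATAC-seq peak in 93.7% (91.7 to 95.2) and 87.3% (82.3 to 91.0) of these genes.

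Each start was described by a transcript that begins at it, taking one with an annotated start codon and the longest coding sequence where there were several. It was of the protein-coding type at 70.0% of upstream and 47.4% of downstream starts. Retained-intron transcripts made up 10.3% and 25.4%, and processed transcripts 13.8% and 23.0%. A start codon was annotated for both transcripts in 333 genes. In 121 of these the same start codon served both transcripts. In 212 (63.7%, 58.4 to 68.6) the start codons differed. The downstream start codon lay in frame inside the upstream coding sequence in 53 genes, after a median of 106 codons, outside it in 158 and out of frame in 1, Elmo1.

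The downstream row was weakest among genes whose downstream transcript had no annotated start codon. The median downstream fold enrichment was 16.6 where that codon lay outside the upstream coding sequence (13.0 to 20.3), 19.9 where only the downstream transcript had a start codon (13.9 to 23.5), 12.7 where the codon was shared (9.55 to 18.4) and 8.00 where it lay in frame inside the upstream coding sequence (5.34 to 11.6). It was 6.19 in the 428 genes where only the upstream transcript had a start codon (5.70 to 7.02) and 6.19 in the 169 genes where neither did (5.36 to 7.90). The intervals of the first 3 groups overlap, and so do those of the in-frame group and the groups without a downstream start codon. The upstream row was the stronger in 59.5%, 55.8%, 59.5%, 79.2%, 84.3% and 80.5% of these groups, in the same order. ATAC-seq peaks overlapped the downstream row in 98.7%, 100%, 93.4%, 92.5%, 86.9% and 92.3%.

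The strength of a row and the CpG content at its start moved together. In the 300 bases around the start (250 before it and 50 from it on), the median ratio of observed to expected CpG was 0.72 upstream (0.70 to 0.74) and 0.44 downstream (0.42 to 0.46), against 0.76 at genes with 1 marked row and 0.37 over all 72829 isolated starts. The upstream window had the higher ratio in 725 genes (70.1%), and the window of the stronger row had it in 821 (79.4%, 76.8 to 81.8). A window with a ratio over 0.6 and a G and C content over 50% is called CpG-rich here. Both windows were CpG-rich in 181 genes, the upstream window only in 487, the downstream window only in 118 and neither in 248.

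**Figure D5:**
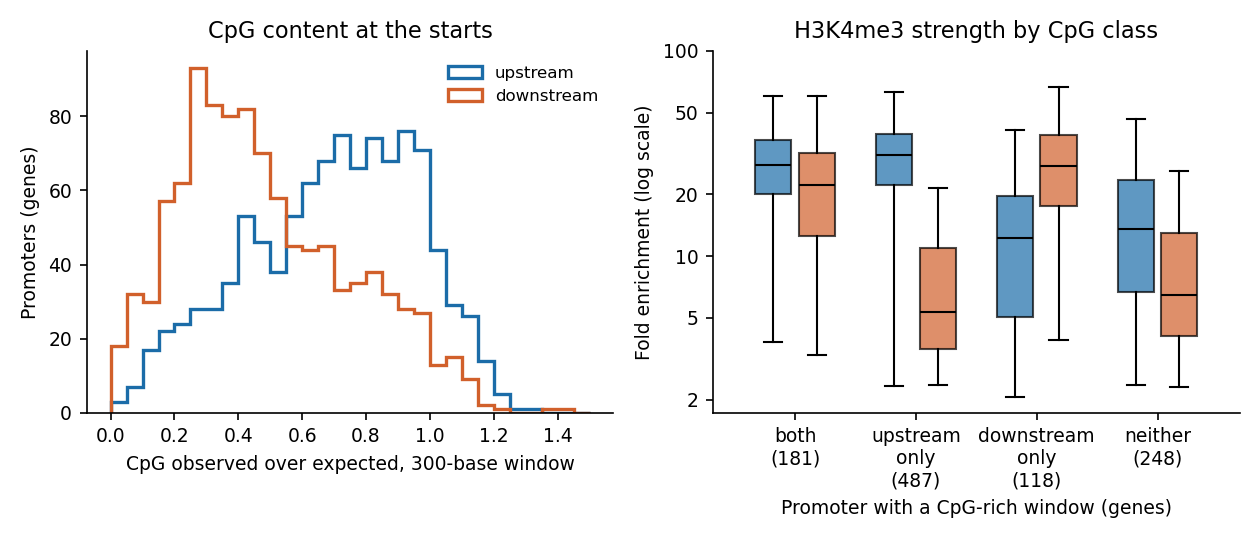
Left, number of genes by the ratio of observed to expected CpG in the 300-base window at upstream and downstream starts. Right, fold enrichment (log scale) of upstream (blue) and downstream (orange) rows by which promoter has a CpG-rich window; boxes span the quartiles with the median as a line, and whiskers follow the usual boxplot rule with outlying points left out. The order of the medians is turned where only the downstream window is CpG-rich (12.3 and 27.6).

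The upstream row was the stronger in 94.5% of the genes with a CpG-rich upstream window only (460 of 487, 92.1 to 96.2) and in 17.8% of those with a CpG-rich downstream window only (21 of 118, 11.9 to 25.7). In the first group the medians were 30.9 upstream and 5.35 downstream, and in the second 12.3 and 27.6. Where both windows were CpG-rich the medians were 27.7 and 22.2 and the upstream row was the stronger in 64.6% (57.4 to 71.2). Where neither was, they were 13.6 and 6.43, with 66.9% (60.9 to 72.5). The downstream row overlapped an ATAC-seq peak in 98.3% of the genes with both windows CpG-rich and 98.3% of those with the downstream window only, but in 89.1% and 89.9% of the others.

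Short promoter motifs were looked up on both strands of the same 300-base windows. The GC box (letters GGGCGG, which include a CpG) was present in 69.0% of upstream and 39.1% of downstream windows, against 64.9% at genes with 1 marked row and 33.4% of all isolated starts. The TATA box (letters TATAAA) was present in 4.84% and 7.06%, with 5.79% and 12.8% in the same comparisons. The CCAAT box, searched by those letters, was present in 29.4% and 30.9%, with 32.3% and 34.1%. The E-box (letters CACGTG) was present in 7.64% and 6.67%, and the cyclic AMP response element (letters TGACGTCA) in 2.32% and 0.87%, both holding a CpG. A match is a string of letters and not a bound site.

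The other starts of the genes that could qualify put these counts in place. Of the 7954 genes, 2114 (26.6%) had no marked row at an isolated start, 4499 (56.6%) had 1 and 307 (3.86%) had more than 1 without meeting the spacing. Where only 1 row was marked it lay at the most 5′ start in 89.4% (88.4 to 90.2) and at the most 3′ start in 4.07%. Over the same genes, an ATAC-seq peak lay within 500 bp of 84.5% of the 685 marked most 3′ starts (81.6 to 87.0) and of 13.0% of the 7269 unmarked ones (12.3 to 13.8). For the most 5′ starts the shares were 96.7% of the marked and 18.2% of the unmarked ones.

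The genes nearest the 3 limits of the rule were as follows. The distances from a start to its row were largest at 500 bp in Igsf9 and 485 bp in Rapgefl1, and Zfp219 (516 bp) and Arhgef40 (518 bp) fell outside. The largest distance between marked starts was smallest at 5043 bp in 1700001O22Rik and 5052 bp in Spag6, while Pef1 (4998 bp) and Insrr (4992 bp) fell outside. The nearest start of another gene lay 1006 bp away in Acss1 and 1010 bp in Crem, and Map4k1 (997 bp) and Inpp5f (989 bp) fell outside. A start of another gene lay inside the row itself in 64 upstream (6.19%) and 31 downstream rows (3.00%), since rows can be wider than the 1 Kb limit. Phc1, a Polycomb protein, had its starts 5.08 Kb apart, with rows of 25.8 and 6.10 and an ATAC-seq peak in the upstream row only.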

How the data were processed

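Peak lists of H3K4me3 ChIP-seq and ATAC-seq from F123 cells were used, each 1 deposited list for 2 replicates. The PLAC-seq and input samples were not analysed here. For H3K4me3 the authors ran the ENCODE histone pipeline at default parameters (aligner and peak threshold not given in the sources used here) and deposited for each peak its position, a display score (not used in the results), a fold enrichment over the peak caller's background and −log10 p and q values. For ATAC-seq the authors aligned reads to mm10 with Bowtie 1.1.2, removed duplicates and mitochondrial reads with SAMtools, and moved read ends by 4 bp. They called peaks with MACS2 2.1.1.20160309 under a limit on the p-value, and kept pooled peaks found in both replicates with bedtools 2.27.1. That list holds positions only. The lists give no read counts, so the depth is unknown.

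Starts, exons and start codons came from GENCODE M21, and sequence from the RefSeq GRCm38 genome file. A start within 500 bp of more than 1 row was given to the nearer row, then to the stronger. Where a row had several such starts, the start nearest its summit (the highest point of the peak) was used. For the chosen genes this choice was made among pairs of starts more than 5 Kb apart. An overlap of 1 bp counted as shared. Shares have 95% Wilson intervals and medians 95% order-statistic intervals. With 1 list per assay no test was run. Whether intervals overlap or not is given as a description and is not a test of a difference. Named genes were the 5 at each extreme (strongest upstream or downstream, widest spacing, strong at both rows, strongest row without ATAC-seq), genes with 4 or more separate marked starts, and members of the lists. Of the listed genes, 1 is not reported here by name. The members and lists were chosen with earlier results of these data known. Alternatives changed the distance to the start, the spacing, the isolation, the transcript types, the rows compared, the −log10 q limit and the ATAC-seq criterion. Scripts ran in Python 3.11.15 with pysam 0.24.0, pandas 2.3.3, numpy 2.4.6, matplotlib 3.10.9 and scipy 1.17.1, and the genome was indexed with samtools 1.23.1.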

Additional observations from a re-analysis of the deposited data

How the results depend on the processing

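The upstream row was wider in more than 50% of the genes in 8 of 8 alternatives and stronger in 9 of 9, and the upstream share with ATAC-seq was the higher in 10 of 10. Of 55 recomputed values, 33 of the main comparisons and 7 others stayed within the interval of the reported value or, for counts of genes, close to it. The rest, 11 of the main comparisons and 4 others, moved further and are given next. With starts of protein-coding transcripts only, 618 genes were chosen, the upstream row was wider in 63.4% and stronger in 67.8%, and the downstream share with ATAC-seq was 95.6%. That downstream share was 94.2% with starts within 100 bp, 93.7% for the 2 strongest rows of each gene, 93.9% with rows up to 1 Kb apart joined, 89.4% with a peak within 500 bp of the start and 85.1% with the widest 50% of ATAC-seq peaks. The upstream share was 95.6% and 95.4% in the last pair of settings. The chosen share of genes was 11.3% within 100 bp and 14.3% within 1000 bp, the median spacing was 39888 bp with starts over 10 Kb apart, and the median upstream CpG ratio was 0.67 in windows of 500 bases on each side. The cause of these shifts was not tested. Upstream and downstream rows were compared within each gene throughout, so pairing below refers only to matching samples by replicate number. No paired analysis was possible because each list pools both replicates, and for the same reason no replicate could be left out. Read depth is unknown, so a row or peak that is missing was not detectable in these lists and may not be absent.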
